A study of Rattus norvegicus with 8 samples.

Results

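Tetraspanins are small membrane proteins that cross the membrane several times. Transcripts of Cd9, Cd37, Cd53, Cd63 and Cd81 were followed here in the rat glioma line C6. All probe sets annotated to these 5 genes were taken, 7 of the 8799 on the array, for 5 of the 4737 genes that a single symbol names: 2 for Cd81, 2 for Cd9 and 1 each for Cd63, Cd37 and Cd53. A probe set is a group of oligonucleotides on the array that together report the signal of a transcript. RNA was profiled on 8 arrays, 2 in each of 4 groups: C6SPGFP fast, C6SPGFP slow, C6 fast and C6 slow. The labels give migration as the subject and the C6 rat glioma line as the source of all groups. They do not explain C6SPGFP, how fast and slow cells were obtained, or whether the 2 replicates were separate cultures, so each p-value reflects array-to-array spread alone, and that spread may be technical.

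Tetraspanins gather integrins, immunoglobulin-superfamily proteins and membrane-anchored growth factors into patches of the cell surface, and through these partners bear on adhesion, migration and membrane fusion. CD81 and CD9 are found on many cell types, among them astrocytes for CD81 and myelin-forming glia for CD9. CD63 sits mainly in late endosomes and lysosomes and, with CD9 and CD81, is a common marker of exosomes. CD37 and CD53 are known from leukocytes.

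Values below are quantile-normalised signals in arbitrary units, set on a common scale because C6SPGFP fast replicate 1 had been deposited with a trimmed mean signal of 501, against 100.1 to 106 on the other 7 arrays. Changes were tested with limma on log2 of the signal plus a pseudocount of 8, for the 6684 probe sets with a mean signal of at least 8. They were called at a Benjamini-Hochberg adjusted p under 0.05 over all of these. Of the 7 tetraspanin probe sets, 6 were tested and that of Cd53 lay below the filter. Arrays of C6 fast cells were the least like the rest: across tested probe sets Pearson's r was 0.923 to 0.939 with C6 slow arrays and 0.899 to 0.913 with C6SPGFP arrays, against 0.969 to 0.978 between replicates. The 3'/5' ratio of the Gapdh control, a measure of RNA integrity, was 1.05 and 1.002 on the C6 fast arrays, against 1.03 and 1.01 on the C6 slow arrays. The same ratio of the hexokinase control was 1.98 and 1.57 on the C6 fast arrays, against 2.23 and 1.88 on the C6 slow arrays. On the C6SPGFP arrays it was 1.72 and 1.61 in fast cells, against 1.72 and 1.49 in slow cells. A hybridisation control (CreX), relative to the trimmed mean, was 12.1 and 13.9 on the C6 fast arrays, against 17.9 and 18.2 on the C6 slow arrays. On the C6SPGFP arrays CreX was 8.74 and 11.7 in fast cells, against 10.7 and 12.9 in slow cells. The part of these controls in the results was not tested. Vim, an intermediate filament protein of C6 cells, had signals of 2594 to 3831 on all 8 arrays, while no probe set was annotated to Gfap. S100b, a calcium-binding protein of astroglia and other glia, had 56.8 and 74.95 in C6 fast cells, against 421 and 395 in C6 slow cells.

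The promoter windows of the genes that moved are shown first, because Cd81 and Cd9 fell together in fast C6 cells while Cd37 moved the other way. Each runs from 250 bases before to 50 bases from the annotated start, 5′ to 3′ on the gene's strand, from RefSeq on build GRCr8: Cd81 at chr1:207665047-207665346 on the plus strand, Cd9 at chr4:159975309-159975608 on the minus strand and Cd37 at chr1:104860735-104861034 on the minus strand. Capitals mark matches, on either strand, to 4 motifs. They are GGGCGG, known as the GC box, then CCAAT, the CCAAT box, then TATAAA, the TATA box, and last GAGGAA, the core of sites that the blood-cell factor PU.1 binds.
Cd81: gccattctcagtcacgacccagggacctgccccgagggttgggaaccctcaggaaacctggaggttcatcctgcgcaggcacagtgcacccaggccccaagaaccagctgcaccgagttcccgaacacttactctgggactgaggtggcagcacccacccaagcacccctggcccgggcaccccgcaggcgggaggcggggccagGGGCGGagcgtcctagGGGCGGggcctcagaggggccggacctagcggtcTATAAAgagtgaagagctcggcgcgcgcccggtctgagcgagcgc
Cd9: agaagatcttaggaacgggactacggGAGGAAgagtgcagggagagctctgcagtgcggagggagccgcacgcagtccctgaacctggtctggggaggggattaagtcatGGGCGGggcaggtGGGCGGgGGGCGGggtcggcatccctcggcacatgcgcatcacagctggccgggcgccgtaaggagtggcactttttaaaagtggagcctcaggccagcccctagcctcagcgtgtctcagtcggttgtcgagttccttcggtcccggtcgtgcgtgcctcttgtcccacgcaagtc
Cd37: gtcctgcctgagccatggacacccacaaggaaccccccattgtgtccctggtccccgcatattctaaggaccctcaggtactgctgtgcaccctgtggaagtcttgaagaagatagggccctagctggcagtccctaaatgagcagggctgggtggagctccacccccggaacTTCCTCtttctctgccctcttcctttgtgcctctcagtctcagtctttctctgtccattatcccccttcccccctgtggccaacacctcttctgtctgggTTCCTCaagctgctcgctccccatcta

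The Cd81 window held 2 GC boxes, starting at bases -45 and -29 from the annotated start, and a TATAAA match at base 6. The Cd9 window held 3 GC boxes, at bases -140, -127 and -120, and a GAGGAA match at base -224. The Cd37 window held no GC box and 2 matches to GAGGAA on the opposite strand, at bases -77 and 24. The window of Cd63, whose transcript did not pass the test between groups, held 2 GC boxes and 1 GAGGAA match. The Cd63 window (chr7:1921894-1922193) lies inside the annotated gene (chr7:1909538-1924937), as that of Cd37 does (gene at chr1:104855622-104861111). Sequence at the outer end of these 2 genes was not searched. The Cd53 window held 1 CCAAT and 1 GAGGAA match, both on the opposite strand. Among 33469 windows of the same length, 33.1% held a GC box, 37.5% CCAAT, 14.2% TATAAA and 27.6% GAGGAA. The GC content was 68.7% for Cd81, 64% for Cd9, 75% for Cd63, 57.3% for Cd37 and 40.7% for Cd53, against a median of 51.7%. A match is a description of the sequence and not evidence of binding. The part of these motifs in the transcript changes was not tested.

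Fast C6 cells had far lower signals of Cd81 and Cd9 than slow C6 cells, with a smaller and less stable rise of Cd37 and no called change of Cd63. The question put by comparing fast with slow cells is which transcripts differ between the 2 labels, which are taken to refer to migration. Of the 6 tested tetraspanin probe sets 4 fell, for the 2 genes Cd81 and Cd9, against 3.96% of all tested probe sets that fell. A single one rose, that of Cd37, against 2.69% of all. The median log2 change of the 6 was -2.45, against 0.01 over all tested probe sets. Cd81 and Cd9 enter these counts and this median with 2 probe sets each. The genes were also chosen with earlier results of these data known. The shares and the median therefore describe these probe sets and do not test the family.

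**Figure D1:**
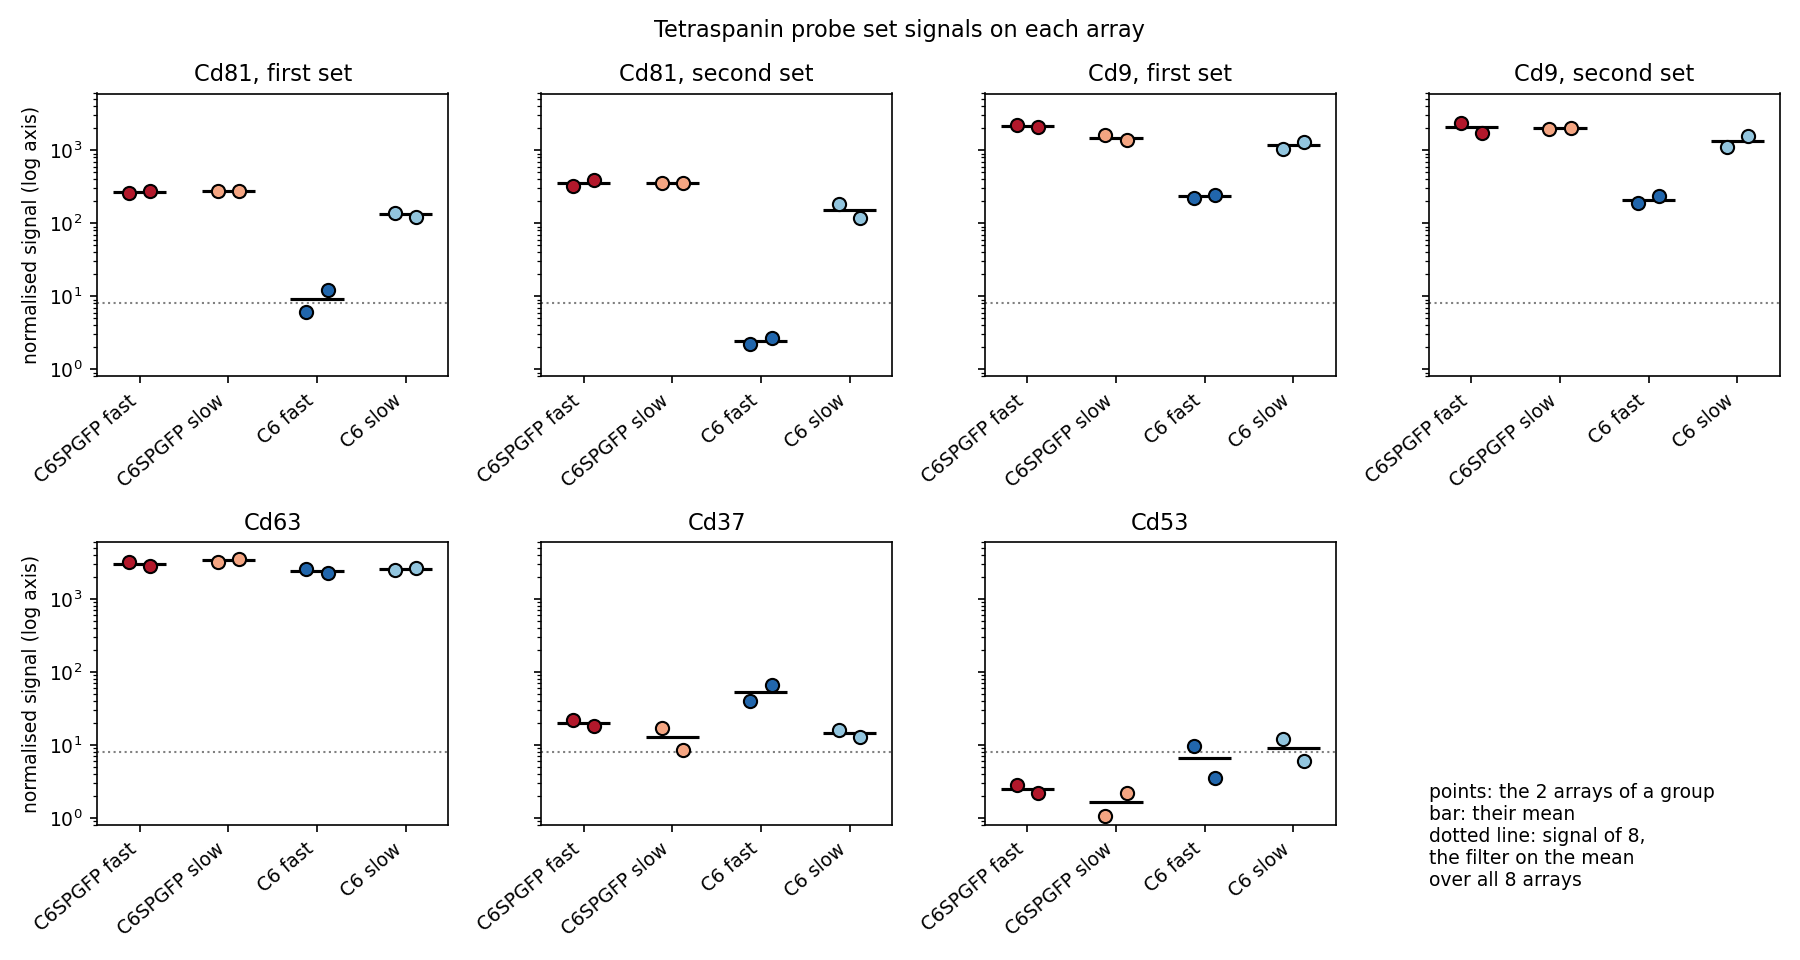
Normalised signal (log axis, arbitrary units) of the 7 tetraspanin probe sets on each of the 8 arrays, with 2 points per group, a bar at their mean and a dotted line at the filter of 8. Both Cd81 and both Cd9 probe sets are lowest in C6 fast cells, Cd37 is highest there, Cd63 lies between 2270.4 and 3534 on every array, and Cd53 lies at 12.01 or below.

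Cd81, also known as TAPA-1, pairs with integrins and with immunoglobulin-superfamily proteins at the cell surface. Its first probe set (rc_AI103957_at) had signals of 6.05 and 12.3 on the C6 fast arrays, against 141 and 124 on the C6 slow arrays. Its second probe set (rc_AI103957_g_at) had 2.23 and 2.65 on the C6 fast arrays, against 185 and 117 on the C6 slow arrays. On both probe sets every C6 fast array lay below every C6 slow array. In this comparison the groups did not overlap, in either direction, for 45.1% of all tested probe sets. The log2 changes were -3.05 ± 0.21 (SE) and -3.90 ± 0.23, with limma adjusted p-values of 8.84e-05 and 4.45e-05. As folds of signal plus pseudocount these are decreases of 8.29-fold and 14.9-fold. The files' signals come here without a measure of background, so it is unknown whether Cd81 was detected at all in C6 fast cells, and the folds depend on the pseudocount.

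Ranks within an array do not depend on how the arrays were scaled. The second Cd81 probe set stood at percentiles 9.98 and 11.7 of all non-control probe sets on the C6 fast arrays, against 77.9 and 70.1 on the C6 slow arrays. The first stood at percentiles 22.1 and 31.8 in C6 fast cells, against 73.2 and 71.1 in C6 slow cells. Among all 6684 tested probe sets, the second had the 10th largest and the first the 24th largest fall in C6. Both probe sets are named for the same source sequence, so they are not independent measurements of Cd81.

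Cd9 pairs with integrins and with the membrane-bound precursor of the growth factor HB-EGF. Its first probe set (X76489cds_at) had signals of 226 and 241 on the C6 fast arrays, against 1057 and 1297 on the C6 slow arrays. The second (X76489cds_g_at) had 188 and 233 in C6 fast cells, against 1127 and 1552 in C6 slow cells. The groups did not overlap on either probe set, against 45.1% of all tested probe sets without overlap. Unlike Cd81, Cd9 kept a clear signal in fast C6 cells, at percentiles 78.1 to 81.5 of the array, against 95.3 to 97.4 in slow C6 cells. The log2 changes were -2.29 ± 0.14 and -2.61 ± 0.20 (SE), with limma adjusted p-values of 5.28e-05 and 0.00013, or decreases of 4.89-fold and 6.12-fold in signal plus pseudocount. They ranked 55th and 36th among the falls of all tested probe sets. These 2 probe sets also share 1 source sequence. On the deposited values as they stand, which leave the 1 array on its other scale, the limma adjusted p-values in C6 were 0.447 and 0.078 for the Cd81 probe sets and 0.905 and 0.431 for those of Cd9. None of these was called, while the log2 changes were -2.82, -3.48, -2.44 and -2.80.

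The Cd63 transcript encodes the tetraspanin of late endosomes and lysosomes. It had signals of 2572 and 2270.4 on the C6 fast arrays, against 2493 and 2618 on the C6 slow arrays, and the groups overlapped. Its log2 change was -0.08 ± 0.11 (SE, 95% interval -0.32 to 0.16; limma adjusted p = 0.77). The interval thus leaves out a change of the size measured for Cd9 or Cd81. Cd63 stood at percentile 98.7 or above on all 8 arrays.

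Cd37, a tetraspanin of B cells and other leukocytes, had signals of 40.04 and 66.2 on the C6 fast arrays, against 16.15 and 13.0 on the C6 slow arrays. The groups did not overlap, as was the case for 45.1% of all tested probe sets in this comparison. The log2 change was 1.41 ± 0.30 (SE), a 2.65-fold rise in signal plus pseudocount, with a limma adjusted p of 0.0271. That call ended without C6 fast replicate 2 (limma adjusted p = 0.158), C6 slow replicate 2 (0.101), C6 slow replicate 1 (0.0788) or C6SPGFP fast replicate 1 (0.0501). It also ended after scaling by the trimmed mean (0.0571), with only the C6 arrays fitted (0.0618) and with no filter (0.051).

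Cd53, the other leukocyte tetraspanin, had signals of 9.65 and 3.525 in C6 fast cells, against 12.01 and 6.05 in C6 slow cells. In C6SPGFP it had 2.78 and 2.21 in fast cells, against 1.06 and 2.19 in slow cells. The values of all groups are low and not shown to be above background, and no test was made.

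Because Cd37 and Cd53 are leukocyte genes, markers of microglia and blood cells were read beside them. Probe sets were present for 21 of 32 such genes, 10 of them tested, and 9 of the 21 stayed below a signal of 8 on every array. The summed signal of the 21 was 499 and 504 on the C6 fast arrays, against 537 and 530 on the C6 slow arrays. In C6SPGFP it was 729 and 719 in fast cells, against 683 and 713 in slow cells. Single markers moved in different directions. In C6, 1 of the 10 tested markers rose, against 2.69% of all tested probe sets, and 1 fell, against 3.96% of all. The one that rose was the sialoglycoprotein Spn, with signals of 116 and 115 in C6 fast cells, against 16.5 and 19.9 in C6 slow cells (log2 change 2.24; limma adjusted p = 0.000295). The one that fell was the T cell co-receptor Cd28 (-2.10). In C6SPGFP Spn rose too (3.71), as 1 of 10 against 1.06% of all, and none of the 10 fell. Its signals there were 131 and 136.5 in fast cells, against 3.66 and 2.05 in slow cells. Spn is part of the summed signals given above and hides the direction of the rest. Without Spn the sum was lower on every fast array than on every slow array of the same set, in C6 and in C6SPGFP. Spn was higher in fast C6 cells, as Cd37 was.

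Among fast cells 2 of the 10 markers were higher in C6SPGFP than in C6, where Cd37 was lower, against 8.29% of all tested probe sets, and none was lower, against 7.3% of all. They were the endotoxin co-receptor Cd14 (log2 difference 1.02; limma adjusted p = 0.0111) and the surface protein Cd48 (1.52; adjusted p = 0.00578). Cd14 had signals of 250.2 and 206 in C6SPGFP fast cells, against 90.55 and 128 in C6 fast cells. Cd48 had 108 and 124 in C6SPGFP fast cells, against 48.4 and 25.03 in C6 fast cells. Over all 8 arrays the complement gene C1qc lay between 74.8 and 109.5, and Ptprc, the pan-leukocyte phosphatase CD45, between 28.5 and 48.3. Itgam, an integrin chain of myeloid cells, lay between 0.75 and 4.65, the T cell chain Cd3d between 2.84 and 5.39, and the actin regulator Coro1a between 1.09 and 1.61. The part of these cell types in the Cd37 values was not tested. In bulk RNA a change in the share of cells that express a gene and a change of RNA per cell cannot be told apart.

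**Figure D2:**
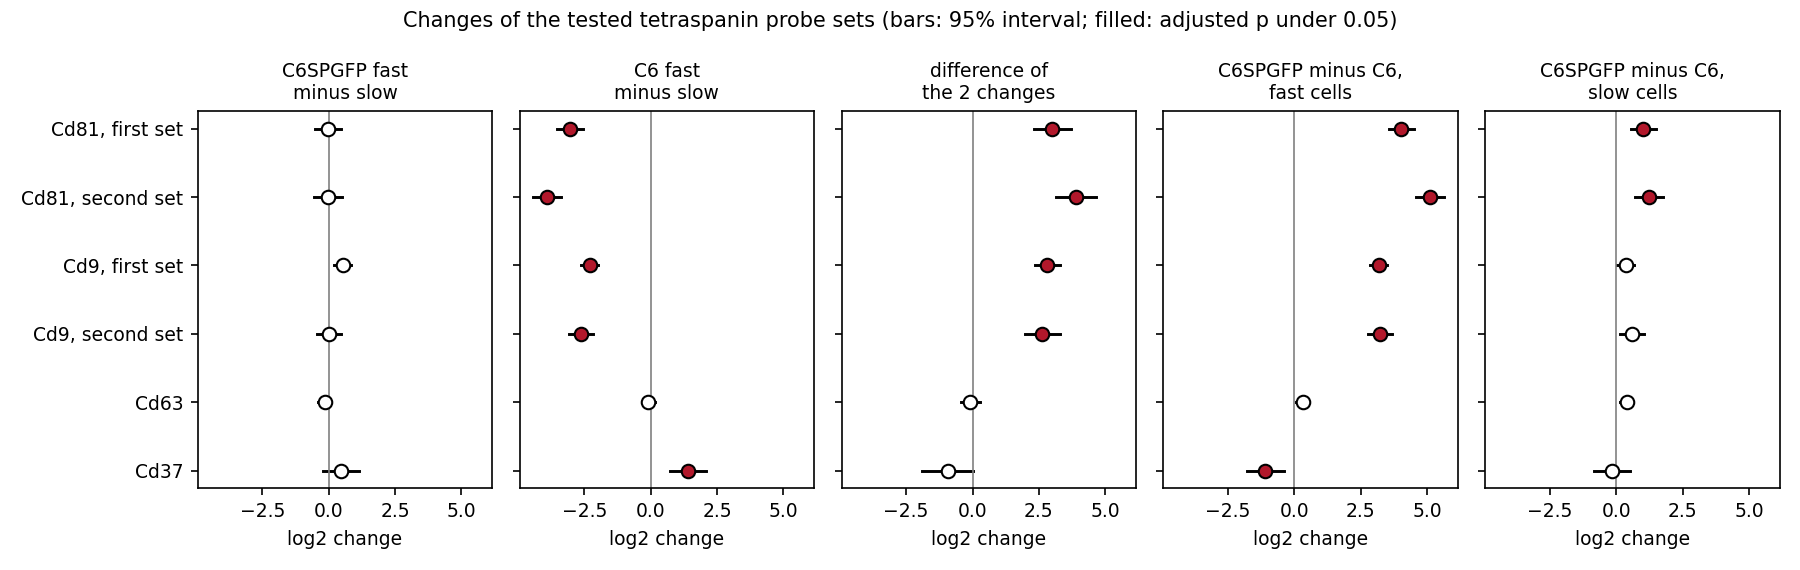
Log2 changes of the 6 tested tetraspanin probe sets in the 5 comparisons, with bars for the 95% interval of the limma fit and filled points at an adjusted p under 0.05. The Cd81 and Cd9 points lie from -3.90 to -2.29 in C6 fast minus slow and from -0.04 to 0.53 in C6SPGFP fast minus slow.

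In the C6SPGFP set none of the 6 tetraspanin probe sets passed the limma test between fast and slow cells, against 1.39% of all tested probe sets called there. A single one, the first of Cd9, had an unadjusted p under 0.05, against 9.69% of all. The arrays of fast and slow cells did not overlap for 3 of the 6, against 44.1% of all. Cd81 had signals of 264 and 273 in C6SPGFP fast cells, against 275 and 278 in C6SPGFP slow cells, on its first probe set. On its second it had 324 and 388 in C6SPGFP fast cells, against 355 and 362 in C6SPGFP slow cells. The log2 changes were -0.04 ± 0.21 (SE, 95% interval -0.53 to 0.45) and -0.01 ± 0.23 (-0.55 to 0.52), with limma adjusted p-values of 0.978 and 0.996. Decreases of the size found in C6 lie outside both intervals.

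The 2 Cd9 probe sets differed in this comparison. The first had signals of 2245 and 2082 in C6SPGFP fast cells, against 1598 and 1389 in C6SPGFP slow cells, with no overlap. The second had 2368 and 1749 in C6SPGFP fast cells, against 1957 and 2052 in C6SPGFP slow cells, and the groups overlapped. The log2 changes were 0.53 ± 0.14 (SE, unadjusted p = 0.00479, limma adjusted p = 0.178) and 0.02 ± 0.20 (adjusted p = 0.988). Cd63 had signals of 3192 and 2841 in C6SPGFP fast cells, against 3192 and 3534 in C6SPGFP slow cells (log2 change -0.16 ± 0.11; limma adjusted p = 0.695). Cd37 had 21.6 and 18.3 in C6SPGFP fast cells, against 16.9 and 8.38 in C6SPGFP slow cells (log2 change 0.47 ± 0.30; limma adjusted p = 0.674).

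**Figure D3:**
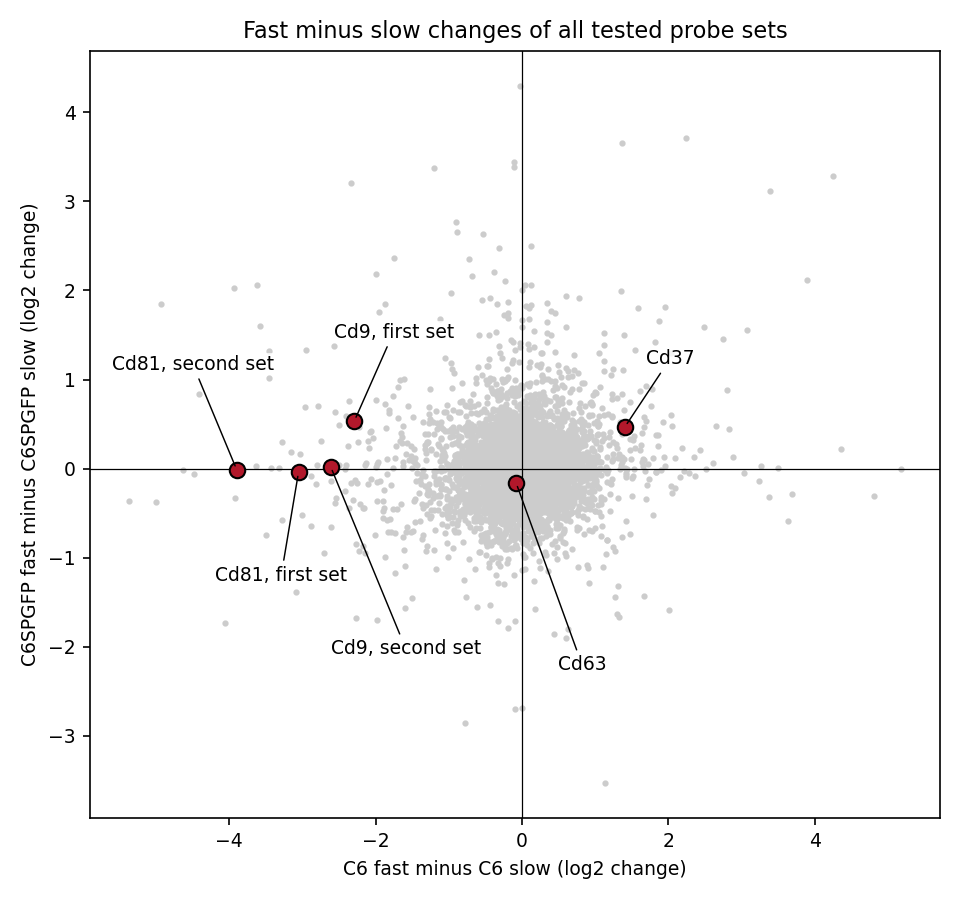
Log2 change of fast minus slow cells in C6 (x axis) and in C6SPGFP (y axis) for the 6684 tested probe sets in grey, with the 6 tetraspanin probe sets in red. Cd81 and Cd9 lie far to the left. On the vertical axis both Cd81 probe sets and the second of Cd9 lie near 0, and the first of Cd9 lies at 0.53. Cd63 lies near 0 on both axes.

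The fast minus slow change itself differed between the sets for Cd81 and Cd9. Tested as an interaction, C6SPGFP minus C6, the difference was 3.01 ± 0.30 and 3.88 ± 0.33 (log2, SE) for the 2 Cd81 probe sets, with limma adjusted p-values of 0.000914 and 0.000415. It was 2.82 ± 0.20 and 2.64 ± 0.28 for the 2 Cd9 probe sets, with adjusted p-values of 0.000162 and 0.00116. These 4 of 6 were called higher, against 2.71% of all tested probe sets called higher in the same test. On the deposited values as they stand none was called, with differences of 3.93, 4.63, 4.02 and 3.92 and limma adjusted p-values of 0.127 to 0.411. The difference for Cd63 was -0.08 ± 0.15 (95% interval -0.42 to 0.27; limma adjusted p = 0.859). For Cd37 it was -0.94 ± 0.43 (95% interval -1.91 to 0.03; limma adjusted p = 0.342), so the rise of Cd37 in C6 was not shown to differ from its change in C6SPGFP.

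Set against C6 cells of the same label, fast or slow, C6SPGFP cells had more Cd81, in fast and in slow cells. Whether cells of the same label share a speed is not given. These comparisons use the same arrays as the fast minus slow ones and are not independent of them. In fast cells the log2 difference, C6SPGFP minus C6, was 4.03 ± 0.21 and 5.12 ± 0.23 (SE) for the 2 Cd81 probe sets and 3.17 ± 0.14 and 3.23 ± 0.20 for the 2 Cd9 probe sets. The limma adjusted p-values lay between 4.5e-06 and 2.28e-05. Of the 6 tetraspanin probe sets 4 were higher, against 8.29% of all, and 1 was lower, against 7.3% of all. The one that was lower was that of Cd37, by a log2 difference of -1.10 ± 0.30 (limma adjusted p = 0.0417). Its call ended without C6 fast replicate 2 (0.194), C6SPGFP fast replicate 2 (0.187), C6SPGFP fast replicate 1 (0.119), C6 slow replicate 1 (0.052) or C6 slow replicate 2 (0.0516). It also ended under 5 other settings, with adjusted p-values of 0.0509 to 0.109, the replicate block (0.0561) among them.

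Among slow cells the difference, C6SPGFP minus C6, was smaller. The first Cd81 probe set averaged 276 ± 1.97 in C6SPGFP slow cells and 132 ± 11.8 in C6 slow cells (SD, n = 2 each). The second averaged 358 ± 5.02 in C6SPGFP slow cells and 151 ± 48.2 in C6 slow cells. The log2 differences were 1.02 ± 0.21 and 1.24 ± 0.23 (SE), with limma adjusted p-values of 0.0279 and 0.018. These 2 of 6 were called higher, against 3.29% of all. Both calls ended without C6SPGFP slow replicate 1 (adjusted p = 0.133 and 0.103), C6SPGFP slow replicate 2 (0.161 and 0.123) or C6 slow replicate 2 (0.0961 and 0.0578). That of the first probe set also ended without C6 slow replicate 1 (0.0771), C6SPGFP fast replicate 1 (0.0578) or C6SPGFP fast replicate 2 (0.0571). On the deposited values as they stand neither was called (limma adjusted p = 0.99995 for both).

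Cd9 did not pass among slow cells, with log2 differences, C6SPGFP minus C6, of 0.35 ± 0.14 and 0.60 ± 0.20 (limma adjusted p = 0.209 and 0.126). Cd63 did not pass in slow cells (0.39 ± 0.11, limma adjusted p = 0.0695) or in fast cells (0.32 ± 0.11, adjusted p = 0.0852). With the arrays scaled by the trimmed mean in place of quantile normalisation, the Cd63 difference in fast cells was -0.16, so its direction is not settled. The same scaling moved the median of all tested probe sets in fast cells to 0.08, against -0.03 under quantile normalisation. Cd37 did not pass in slow cells (-0.16 ± 0.30, limma adjusted p = 0.817).

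For each gene the 4 groups could then be put in order. Cd81 was highest in C6SPGFP fast and C6SPGFP slow cells, between which neither probe set passed the test although the arrays of the first did not overlap, lower in C6 slow cells, and lowest in C6 fast cells. For Cd9 the C6SPGFP fast, C6SPGFP slow and C6 slow cells came in that order by mean, with no neighbour passing the test, and C6 fast cells were well below. On the second Cd9 probe set the C6SPGFP fast and slow arrays overlapped, and under trimmed-mean scaling their log2 difference was -0.035. The order of these 2 groups is thus not settled. For Cd37 the C6 fast cells were highest, and the arrays of C6SPGFP slow and C6 slow cells overlapped. For Cd63 the order by mean was C6SPGFP slow, C6SPGFP fast, C6 slow and C6 fast. Under trimmed-mean scaling the log2 differences (-0.26 for fast minus slow in C6SPGFP, -0.16 for C6SPGFP minus C6 in fast cells) put C6SPGFP fast cells last, so the order is not settled. Fast and slow cells did not pass the test in either set, and C6SPGFP fast cells were not tested against C6 slow cells.

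Other tetraspanins were read in the same comparisons. Of 25 listed, 7 had a probe set and 6 were tested, and in C6 1 fell, against 3.96% of all tested probe sets, and none rose, against 2.69% of all. Their median log2 change was -0.16, against 0.01 over all. The one that fell was Tspan17, a tetraspanin that guides the sheddase ADAM10 out of the endoplasmic reticulum. It had signals of 51.1 and 83.2 in C6 fast cells, against 207 and 425 in C6 slow cells (log2 change -2.06 ± 0.33; limma adjusted p = 0.00652). Cd82, linked with reduced metastasis in carcinoma, did not pass on the probe set with the higher signal (-0.51 ± 0.13, adjusted p = 0.0529), nor did Cd151, a laminin-receptor partner (-0.22, adjusted p = 0.472), or Tspan3 (-0.05, adjusted p = 0.902). In C6SPGFP none of the 6 passed the limma test, against 1.39% of all, and none had an unadjusted p under 0.05, against 9.69% of all. Among fast cells Tspan17 (3.07), Tspan3 (0.75) and Cd82 (0.63) were higher in C6SPGFP than in C6 on the log2 scale, and the other Cd82 probe set gave 0.33 (adjusted p = 0.219).

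**Figure D4:**
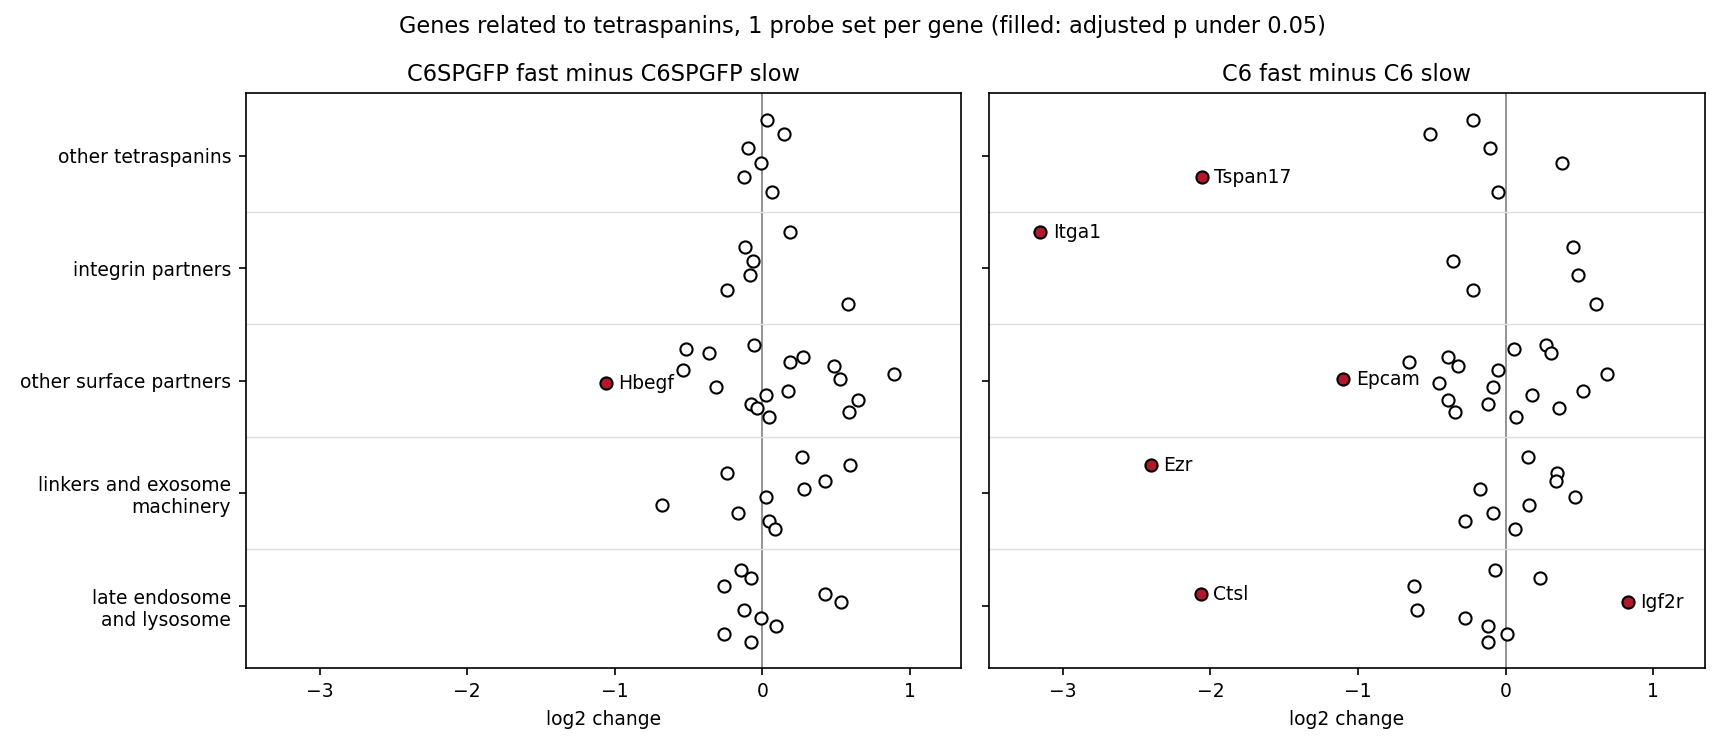
Log2 changes of fast minus slow cells in C6SPGFP (left) and C6 (right) for genes related to tetraspanins, 1 probe set per gene, filled where the adjusted p was under 0.05. In C6 the called genes are Tspan17, Itga1, Epcam, Ezr and Ctsl to the left and Igf2r to the right, and in C6SPGFP Hbegf to the left.

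Tetraspanins act through partner proteins. Of 6 tested integrin chains, 1 fell in fast C6 cells, against 3.96% of all tested probe sets, and none rose, against 2.69% of all. Their median log2 change was 0.12, against 0.01 over all. It was Itga1, a chain of the collagen and laminin receptor, with signals of 41.2 and 49.05 in C6 fast cells, against 539.8 and 398 in C6 slow cells (log2 change -3.15; limma adjusted p = 0.000118). Itgb1, the beta chain shared by the tetraspanin-linked integrins, had 1616 and 1552 in C6 fast cells, against 1651 and 765 in C6 slow cells, and its groups overlapped. In C6SPGFP no integrin chain passed the limma test, against 1.39% of all, and none had an unadjusted p under 0.05, against 9.69% of all.

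Of 18 other surface partners tested, 1 fell in fast C6 cells, a share close to the 3.96% of all tested probe sets. It was the adhesion molecule Epcam (log2 change -1.10; limma adjusted p = 0.0223). In C6SPGFP also 1 fell, against 0.329% of all. It was Hbegf, whose membrane-bound product binds CD9. It had signals of 185 and 174 in C6SPGFP fast cells, against 398 and 369 in C6SPGFP slow cells (log2 change -1.06; limma adjusted p = 0.0227). In C6 its log2 change was -0.45 (adjusted p = 0.182). Among fast cells Epcam (1.99), the hyaluronan receptor Cd44 (1.06) and Timp1 (1.02), which binds CD63, were higher in C6SPGFP than in C6, and Slc3a2, the CD98 heavy chain, was lower (-0.42).

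Of 10 cytoplasmic linkers and exosome genes tested, 1 fell in fast C6 cells, against 3.96% of all tested probe sets. It was Ezr, encoding ezrin, which ties membrane proteins to actin, with signals of 134 and 82.0 in C6 fast cells, against 667 and 522 in C6 slow cells (log2 change -2.40; limma adjusted p = 0.000861). In C6SPGFP none of the 10 passed the limma test, against 1.39% of all, and 2 had an unadjusted p under 0.05, against 9.69% of all. Of 10 late endosomal and lysosomal genes, the compartment of CD63, 1 rose in fast C6 cells, the mannose 6-phosphate receptor Igf2r (log2 change 0.83), and 1 fell, the protease Ctsl (-2.06; -1.26 on its other probe set). Over all tested probe sets 2.69% rose and 3.96% fell, and the other 8 genes did not pass. In C6SPGFP none of these 10 passed, against 1.39% of all, and 2 had an unadjusted p under 0.05, against 9.69% of all.

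The fast minus slow change of 4 genes of these lists differed between the sets by the limma interaction test, all in the direction of higher in C6SPGFP. Called were 1 of 6 integrin chains, 1 of 18 other surface partners and 1 of 10 linkers and exosome genes. The same held for 1 of 10 late endosomal and lysosomal genes and for none of the 6 other tetraspanins. Over all tested probe sets 2.71% were called higher. Of the 10 tested markers of microglia and blood cells 2 were also called higher, Cd28 and Spn. The difference, C6SPGFP minus C6, was 3.34 for Itga1 (adjusted p = 0.000834), 2.999 for Ezr (0.00306), 2.49 for Ctsl (0.000988) and 1.63 for Epcam (0.0283). It was not called for Tspan17 (1.94, limma adjusted p = 0.0631), Hbegf (-0.61, 0.269) or Igf2r (-0.30, 0.575).

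Of the glial genes read for the identity of the cells, 1 of 9 tested fell in fast C6SPGFP cells, against 0.329% of all tested probe sets, and 5 of 9 in fast C6 cells, against 3.96% of all. The 1 was Cnp, and the 5 were Cnp, Glul, Nes, S100b and Sox10. By the limma interaction test 4 of the 9 were called higher, C6SPGFP minus C6, against 2.71% of all. They were Cnp, Nes, S100b and Sox10. The other S100b probe set gave a log2 change of -0.19 in C6 (limma adjusted p = 0.768).

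The genes with the pattern most like each tetraspanin were taken by Pearson's r of log2 values over the 8 arrays. Where a tetraspanin had 2 probe sets, the brighter was used. The candidates were 1086 probe sets whose group means spanned at least 1 on the log2 scale. Of each candidate gene the probe set with the highest r was kept, which favours high values of r. The 8 arrays fall into 4 groups that share their replicates, so r mainly reflects the group means. For Cd81 the nearest were Aatk (r = 0.997), Calcb (0.994), Add3 (0.993) and Prickle2 (0.991). Aatk had signals of 2.98 and 2.65 in C6 fast cells, against 264 and 254 in C6 slow cells, and 781 and 806 in C6SPGFP fast cells, against 825 and 776 in C6SPGFP slow cells. For Cd9 they were Map3k1 (0.991), Tubb2b (0.991), Rnf130 (0.990) and Sox10 (0.990), and Sox10 had 2.23 and 0.9 in C6 fast cells, against 240.5 and 367 in C6 slow cells.

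For Cd37 the nearest patterns were those of F2rl1 (r = 0.965), Efna1 (0.947), Ampd3 (0.945) and Lama3 (0.945). Lama3, a laminin chain, had signals of 334 and 518 in C6 fast cells, against 20.8 and 20.2 in C6 slow cells. For Cd63 they were Cacna2d1 (r = 0.981), Pcbp4 (0.968), Slc1a1 (0.961) and Pmp22 (0.955), and the membrane protein Pmp22 had 2100.1 and 1475 in C6SPGFP fast cells, against 1177 and 972 in C6 fast cells. Cd63 itself passed in no comparison and the order of its groups is not settled, so its pattern is not settled either. Genes that varied as little as Cd63 were not among the candidates. Another Pmp22 probe set gave a log2 difference, C6SPGFP minus C6, of 0.17 in fast cells, against 0.71 for the one named here.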

How the data were processed

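The labels give 8 samples of the C6 rat glioma line, mapped by title to 4 groups of 2. Each array's deposited table holds 1 intensity per probe set on a linear scale, from 0 to 14287.9. No header or label names the software with which the authors computed them. Trimmed means near 100.1 or slightly above on 7 arrays and 501 on 1 point to scaling array by array, so all 8799 probe sets were quantile normalised, and 59 controls were left out of the tests. Probe sets with a mean signal of at least 8 were tested (6684); 2056 were not. A model of 4 group means was fitted to all 8 arrays with limma 3.58.1 in R 4.3.3 (lmFit, and eBayes with a trend; 4 residual and 4.49 prior degrees of freedom) on log2 of the signal plus 8, two-sided. The number of arrays limits the precision of every value. On simulated arrays for C6 fast minus C6 slow (6684 probe sets), 45.5%, 98% and 100% of 200 changed probe sets were recovered at log2 changes of 1, 2 and 3. Beside them 9, 13 and 12 unchanged probe sets were called.

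Of all probe sets, 7018 carried a single gene symbol, 308 several and 1473 none; 6994 symbols were updated through Entrez identifiers in a RefSeq table of GRCr8. All 5 promoter windows were found in RefSeq. Tetraspanin probe sets were all named. Other genes were named from lists (called, up to 4 per direction by size, the probe set with the highest mean signal) or as the 4 patterns most like a member by Pearson's r. Not every called gene of the lists is named. Differences of listed genes between the sets are given for fast cells of some lists and for slow cells of none. Some genes were added beside these for context, chosen after their values were seen: Itgb1, Cd151, Cd82, Tspan3 and Hbegf where they were not called, and C1qc, Itgam, Cd3d, Coro1a and Ptprc. The members and lists were chosen with earlier results of these data known. Scaling, pseudocount, filter, moderation, arrays fitted, replicate block and each array left out were varied.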

Additional observations from a re-analysis of the deposited data

Results flagged for a closer look

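The fast minus slow change of Cd81 and Cd9 differed between the 2 sets of cells by a limma interaction test. The difference, C6SPGFP minus C6, was 3.01 and 3.88 on the log2 scale for the 2 Cd81 probe sets and 2.82 and 2.64 for the 2 Cd9 probe sets, with adjusted p-values of 0.000914, 0.000415, 0.000162 and 0.00116. Fast cells were lower than slow cells on all arrays of C6 for both genes. The 2 C6 groups did not overlap, in either direction, for 45.1% of all tested probe sets. In C6SPGFP the Cd81 changes were -0.04 and -0.01 and the Cd9 changes 0.53 and 0.02, none of them called. With each array left out in turn the 4 differences lay between 2.41 and 4.20, and all were called. Groups of 2 arrays are too small for a check on single outlying arrays.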

How the results depend on the processing

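Scaling decided most. On the deposited values, with 1 array on another scale, calls over all probe sets numbered 23 in C6, 21 in C6SPGFP, 25 for the difference, 1 among slow and 186 among fast cells, against 445, 93, 255, 424 and 1042. Tetraspanin calls were 0 in C6, for the difference and among slow cells. The share of calls that were higher was 52.2%, 100%, 96%, 100% and 93.5%, against 40.4%, 76.3%, 71.0%, 51.9% and 53.2%. Medians of all probe sets shifted to 1.03 (C6SPGFP), 1.07 (difference) and 1.10 (fast cells). Signs turned for Cd81 (1.11 and 1.15) and Cd63 (0.90) in C6SPGFP, for Cd37 (0.25) and Cd63 (0.95) in the difference, and for Cd37 among fast cells (0.12). Trimmed-mean scaling turned Cd63 among fast cells (-0.16), the second Cd81 probe set (0.014) and the second Cd9 probe set (-0.035) in C6SPGFP. Fitting the compared arrays alone gave 248 calls in C6 and 281 among slow cells. Apart from the deposited values, the Cd81 and Cd9 calls in C6, the difference and fast cells held under every alternative run.

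With each array left out, calls over all probe sets ranged from 279 to 447 in C6, 21 to 107 in C6SPGFP, 124 to 273 for the difference, 95 to 431 among slow and 515 to 1132 among fast cells. Tetraspanin calls ranged from 4 to 5, 0 to 0, 4 to 4, 0 to 2 and 4 to 5. A lone array was then assumed to vary like the other groups. Signs turned within these ranges for Cd63 in C6 (-0.17 to 0.0095) and the difference (-0.17 to 0.013), for Cd37 among slow cells (-0.46 to 0.14), and in C6SPGFP for the second Cd9 (-0.20 to 0.24) and Cd81 (-0.14 to 0.11) probe sets. The causes were not tested.

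Same-numbered replicates are not shown to be paired: their deviations correlated at 0.266 in C6, 0.104 in C6SPGFP, 0.0266 in slow and 0.0283 in fast cells. With the replicate number as a block, 424, 87, 235, 392 and 989 probe sets were called, and among tetraspanins Cd37 in fast cells lost its call (adjusted p = 0.0561). Low signals, those of Cd53 and of Cd81 in C6 fast cells, are limited by an unknown background.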
